A study of Danio rerio with 12 samples.

Results

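dre-miR-139-5p and dre-miR-139-3p, the arms of the microRNA hairpin miR-139, are 2 of the 326 mature microRNAs listed in the zebrafish libraries described here. They were taken by name and had been selected on their measured difference between Endo and NoEndo libraries, with both arms higher in Endo, so their levels in the populations are given as a description, with no test. Small RNA was sequenced from dissociated transgenic embryos and larvae whose GFP-positive cells were sorted by FACS, at 24, 48 and 72 hpf (hours post fertilization) and 6 dpf (days post fertilization). The comparison uses 5 Endo and 5 NoEndo libraries, 2 per population at 48 hpf and 1 per population at the other stages. The labels name neither the transgene and its promoter nor a strain. They also describe the NoEndo libraries as endothelial and GFP, so the populations rest on the sample titles, and no source used here says which cells the NoEndo sort held. The labels do not tie replicates to separate clutches, and most groups hold 1 library, so the p-values cover no more than the spread among these libraries, possibly a technical one. A further library of each title, replicate 1 at 72 hpf, holds identical values in both files and entered no comparison.

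A microRNA gene is transcribed as a hairpin, which Drosha and Dicer cut into a short duplex. An arm of the duplex is loaded into an Argonaute protein and guides it to messenger RNAs that match the seed near the arm's 5′ end, and the other arm is usually degraded. Arms from the 5′ and the 3′ side of a hairpin have different seeds and so different targets. In mammals, miR-139 lies in an intron of PDE2A, which encodes an enzyme that degrades cyclic AMP and cyclic GMP, and miR-139-5p represses the chemokine receptor gene CXCR4.

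In Zv9 coordinates, the entry of miR-139-5p is at chr15:47153835-47153852 and that of miR-139-3p at chr15:47153872-47153894, both on the plus strand. Each arm has 1 genomic copy. The entries span 60 bases with 19 bases between them, and no other listed microRNA lies within 10000 bases. The 3p entry is 23 bases long and the 5p entry 18 bases. Only 2 of the 326 microRNAs have entries of 18 bases or fewer, against a median of 22 bases, and the sources used here do not say how far a read had to overlap an entry to be counted. The 5p levels, the arm shares and the distinct reads below may depend on that rule. In NCBI's GRCz12tu gene list, the hairpin matched 1 entry, which lies within the span of 1 gene, pde2a. No read of either arm was listed on the antisense strand in any library.

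Reads on mature microRNAs ran from 250084 to 1068864 in Endo and from 643870 to 5028382 in NoEndo, so a count of 0 allows up to 2.81 to 12.0 CPM in Endo and 0.602 to 4.67 CPM in NoEndo, counting error only. CPM here is the rounded multi-mapping-adjusted count scaled to the library's sum of such counts. The 4 endothelial microRNAs of the marker list stand in 3 entries, miR-126a-3p, miR-126b-3p and a joint entry of miR-126a-5p and miR-126b-5p, which summed to 16095 to 94225 CPM in Endo and 136 to 715 CPM in NoEndo. None of the 3 was at 0 in any library.

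miR-139-5p, the arm with more reads in 9 of the 10 libraries, was at 312 CPM in Endo at 24 hpf, 2593 and 3943 CPM in replicates 1 and 2 at 48 hpf, 2328 CPM at 72 hpf and 1140 CPM at 6 dpf. In NoEndo it was at 118 CPM at 24 hpf, 315 and 460.4 CPM in replicates 1 and 2 at 48 hpf, 284 CPM at 72 hpf and 201 CPM at 6 dpf. Endo was the higher population at each stage, but the groups overlapped, since the Endo library at 24 hpf lay below both NoEndo libraries at 48 hpf. Its exact Poisson interval for counting error, 254 to 379 CPM, overlapped that of NoEndo replicate 1 at 48 hpf, 273 to 361 CPM. The Endo libraries averaged 2063 ± 1397 CPM, and the NoEndo libraries 276 ± 129 CPM (SD, n = 5 each).

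miR-139-3p was at 537 CPM in Endo at 24 hpf, 427 and 192 CPM in replicates 1 and 2 at 48 hpf, 359.6 CPM at 72 hpf and 712 CPM at 6 dpf. In NoEndo it was at 35.8 CPM at 24 hpf, 20.0 and 20.8 CPM in replicates 1 and 2 at 48 hpf, 16.4 CPM at 72 hpf and 64.7 CPM at 6 dpf. Every Endo library was above every NoEndo library, and in both populations the library at 6 dpf was the highest. Since the arm was chosen on its difference between populations, nothing is read from that separation. How many other microRNAs separate likewise was not counted. The NoEndo values rest on 13 to 112 counts, and the one with the fewest counts, replicate 1 at 48 hpf, has a counting interval of 10.6 to 34.1 CPM. The Endo libraries averaged 446 ± 194 CPM, and the NoEndo libraries 31.5 ± 20.0 CPM (SD, n = 5 each).

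**Figure D1:**
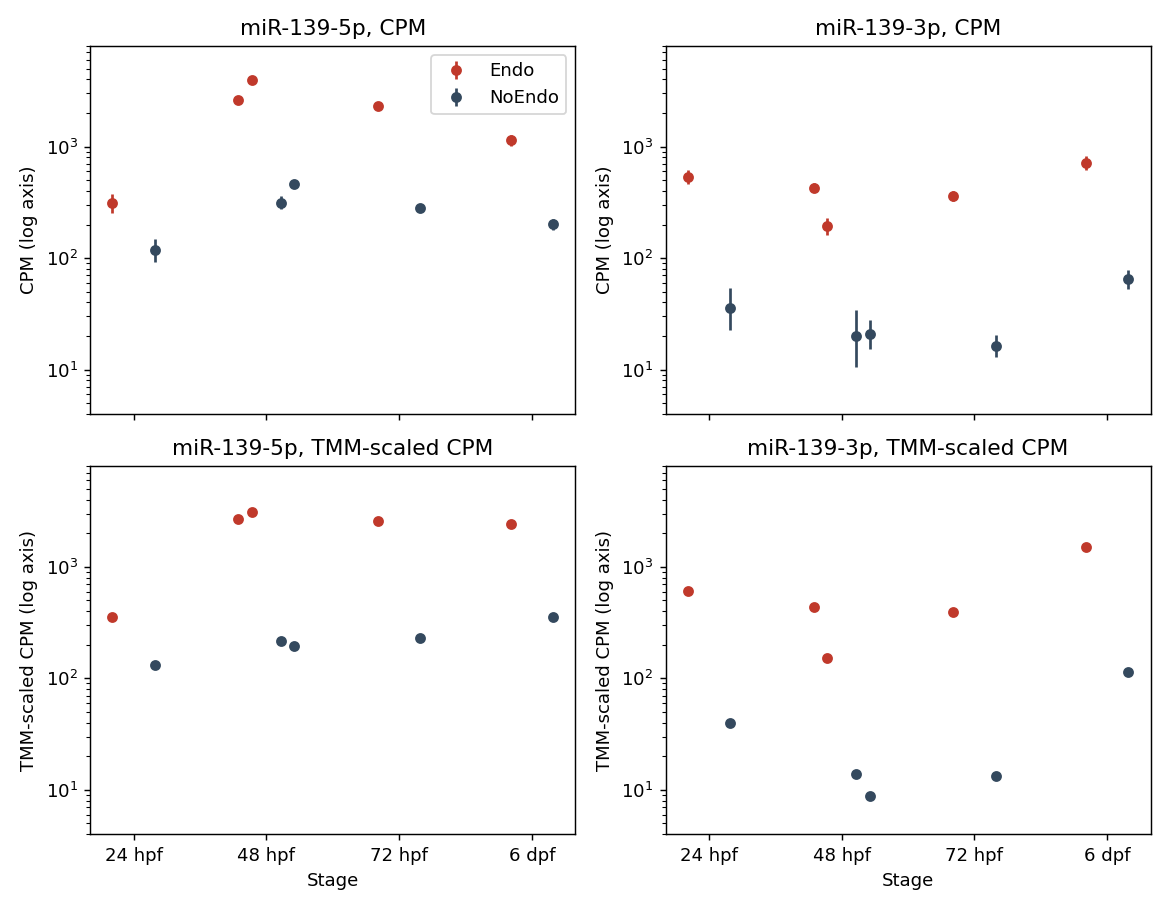
Levels of miR-139-5p (left) and miR-139-3p (right) by stage in CPM (upper row, bars are exact Poisson intervals of the count at 95%) and in TMM-scaled CPM (lower row), on log axes, 1 point per library with Endo left of NoEndo. miR-139-5p is lowest at 24 hpf in both populations, while miR-139-3p is lowest at 48 or 72 hpf and highest at 6 dpf.

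Within Endo, miR-139-5p ran in the order 48 hpf replicate 2, 48 hpf replicate 1, 72 hpf, 6 dpf and 24 hpf. The replicates at 48 hpf differed 1.52-fold in CPM, more than replicate 1 differed from the library at 72 hpf, while the steps down to 6 dpf and to 24 hpf were wider than that gap. For miR-139-3p the Endo replicates at 48 hpf differed 2.22-fold in CPM, replicate 1 over replicate 2, and no neighbours in the order of Endo libraries differed by more. In NoEndo, the replicates at 48 hpf differed 1.46-fold for miR-139-5p, and the library at 24 hpf lay further below its neighbour at 6 dpf than that. The NoEndo replicates of miR-139-3p differed 1.04-fold, with 6 dpf and 24 hpf above them and 72 hpf below. The counting intervals at 24 hpf, 22.7 to 53.7 CPM, and at 72 hpf, 13.1 to 20.4 CPM, overlapped those of both replicates. After TMM scaling, the gap of miR-139-5p between the Endo replicates was 0.22 on the log2 scale, and 217 of 265 tested microRNAs had a wider one. The gap of miR-139-3p was 1.53, and 36 of 265 were wider.

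TMM scaling, which sets libraries against each other by the bulk of their microRNAs, changes these courses. The factors ran from 0.468 in Endo and 0.568 in NoEndo at 6 dpf to 2.37 in NoEndo replicate 2 at 48 hpf. On this scale miR-139-5p was at 355 CPM in Endo at 24 hpf and between 2436 and 3118 CPM in the 4 later Endo libraries, against 131 CPM in NoEndo at 24 hpf and, in the later NoEndo libraries, 218 and 194 CPM in replicates 1 and 2 at 48 hpf, 228 CPM at 72 hpf and 354 CPM at 6 dpf. The lowest Endo and the highest NoEndo value nearly met, at 355.04 and 354.06 CPM. miR-139-3p was at 612 CPM in Endo at 24 hpf, 440.2 and 152 CPM in replicates 1 and 2 at 48 hpf, 395 CPM at 72 hpf and 1521 CPM at 6 dpf. In NoEndo it was at 39.6 CPM at 24 hpf, 13.8 and 8.78 CPM in replicates 1 and 2 at 48 hpf, 13.2 CPM at 72 hpf and 114 CPM at 6 dpf. The groups did not overlap, and again nothing is read from that separation.

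In the share of both arms together, miR-139-3p held 63.3% of reads in Endo at 24 hpf (exact binomial interval 57.3 to 69.0%), 14.1% (13.0 to 15.4%) and 4.65% (3.94 to 5.46%) in replicates 1 and 2 at 48 hpf, 13.4% (12.1 to 14.7%) at 72 hpf and 38.4% (34.0 to 43.0%) at 6 dpf. In NoEndo it held 23.2% (15.3 to 32.8%) at 24 hpf, 5.96% (3.21 to 9.98%) and 4.33% (3.21 to 5.70%) in replicates 1 and 2 at 48 hpf, 5.47% (4.37 to 6.74%) at 72 hpf and 24.3% (20.5 to 28.5%) at 6 dpf. The 3p arm was the major arm in 1 library, Endo at 24 hpf. In both populations the 24 hpf and 6 dpf libraries had higher 3p shares than all libraries used at 48 and 72 hpf. The libraries used at 24 hpf and 6 dpf are all replicate 1, and those at 72 hpf all replicate 2. Outside 48 hpf, stage and replicate number thus cannot be told apart. The identical 72 hpf file of replicate 1, which was left out, had a share of 28.4%. A share within a library does not depend on scaling, and these intervals cover counting error only.

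**Figure D2:**
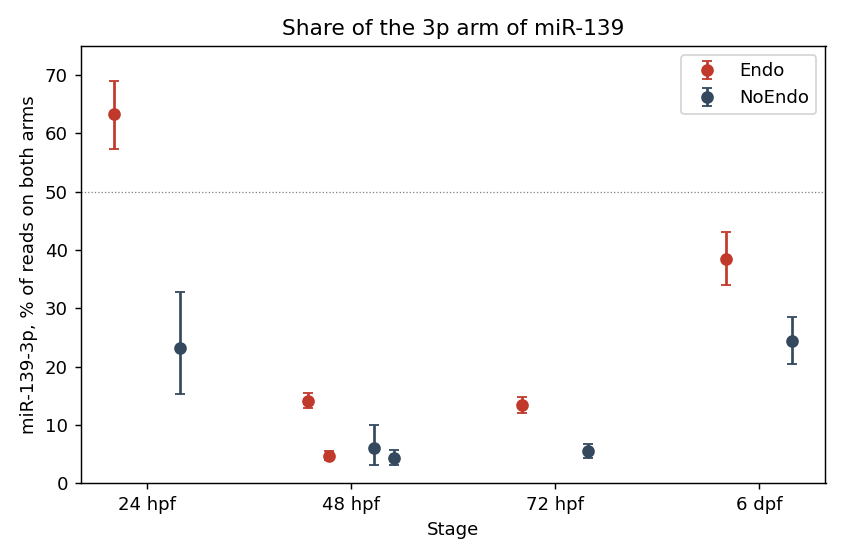
Share of miR-139-3p among the reads of both arms (vertical axis, percent) by stage, 1 point per library with exact binomial intervals at 95%, Endo left of NoEndo. Among the libraries used, the share is highest at 24 hpf and 6 dpf in both populations, and above the dotted line at 50% only in Endo at 24 hpf. The libraries shown at 24 hpf and 6 dpf are replicate 1, and those at 72 hpf replicate 2.

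The mean 3p share was 26.8% ± 24.0 in Endo and 12.7% ± 10.2 in NoEndo (SD, n = 5 each), and the ranges overlapped. Without the Endo library at 24 hpf the Endo mean was 17.7%. At 24 hpf, 72 hpf and 6 dpf the Endo library had the higher share. At 48 hpf, replicate 2 of Endo had 4.65%, less than replicate 1 of NoEndo with 5.96%, but their counting intervals overlapped. Between libraries of the same number Endo was higher, with 14.1 against 5.96% in replicate 1 and 4.65 against 4.33% in replicate 2. The intervals of the replicate 2 libraries overlapped too, and the replicate numbers share no stated source. The 2 Endo libraries with the highest shares, at 24 hpf and 6 dpf, were also the shallowest Endo libraries, with 324476 and 250084 microRNA reads. In NoEndo, the shallowest library, at 24 hpf with 643870 reads, had a share of 23.2%, while replicate 1 at 48 hpf with 657337 reads had 5.96% and the library at 6 dpf with 1739921 reads had 24.3%. The part of depth in the share was not tested.

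Against other hairpins, part of the breadth of the arm use of miR-139 rested on the Endo library at 24 hpf. Among 62 hairpins with both arms named and at least 10 reads on them in every library used, the range of the 3p share over the 10 libraries was 58.9 percentage points for miR-139, the third widest, against a median of 4.72. miR-139 was 1 of 6 hairpins whose major arm was not the same in all 10 libraries; the others were miR-124, miR-130c, miR-18b, miR-210 and miR-430a. The difference between the population means, 14.1 percentage points, was the widest of the 62, ahead of miR-18b at -12.2. The arms were chosen with their differences between populations known, so nothing is read from its rank here or below. On the log2 scale of 5p over 3p, which does not favour hairpins near equal use, the range of miR-139 was 5.23, rank 13 of 62, against a median of 3.84. That scale in turn widens the range of hairpins whose minor arm falls to few or 0 counts. The widest, 7.51, was that of miR-125c, whose 3p share ran from 0 to 0.432%. miR-139 had at least 13 counts on each arm in every library. Without the Endo library at 24 hpf, a comparison added after seeing the data, the range of the 3p share was 34.1 percentage points, rank 5 of 62, against a median of 3.29, and miR-139-5p was the major arm in the 9 libraries left. The difference between the population means was then 4.99 percentage points, rank 10 of 62, and the log2 range 3.77, rank 28 of 62, against a median of 3.54.

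Library by library, each hairpin was set against its own mean in log2 (5p/3p, with 0.5 added to each count). In Endo, miR-139 stood at -3.32 at 24 hpf, above 2 of the other 61 hairpins, at 0.06 and 1.82 in replicates 1 and 2 at 48 hpf, above 30 and 58, at 0.16 at 72 hpf, above 29, and at -1.86 at 6 dpf, above 8. In NoEndo it stood at -0.83 at 24 hpf, above 25 of the 61, at 1.39 and 1.92 in replicates 1 and 2 at 48 hpf, above 56 and 58, at 1.57 at 72 hpf, above 60, and at -0.90 at 6 dpf, above 19. It thus lay within the interquartile range of the other hairpins in 4 of the 10 libraries and outside it in 6. That range by definition leaves out about as many hairpins as it holds, so nothing is read from this split. It also does not show how far outside miR-139 lay. The ranks reached from above 2 of 61 in Endo at 24 hpf to above 60 of 61 in NoEndo at 72 hpf.

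**Figure D3:**
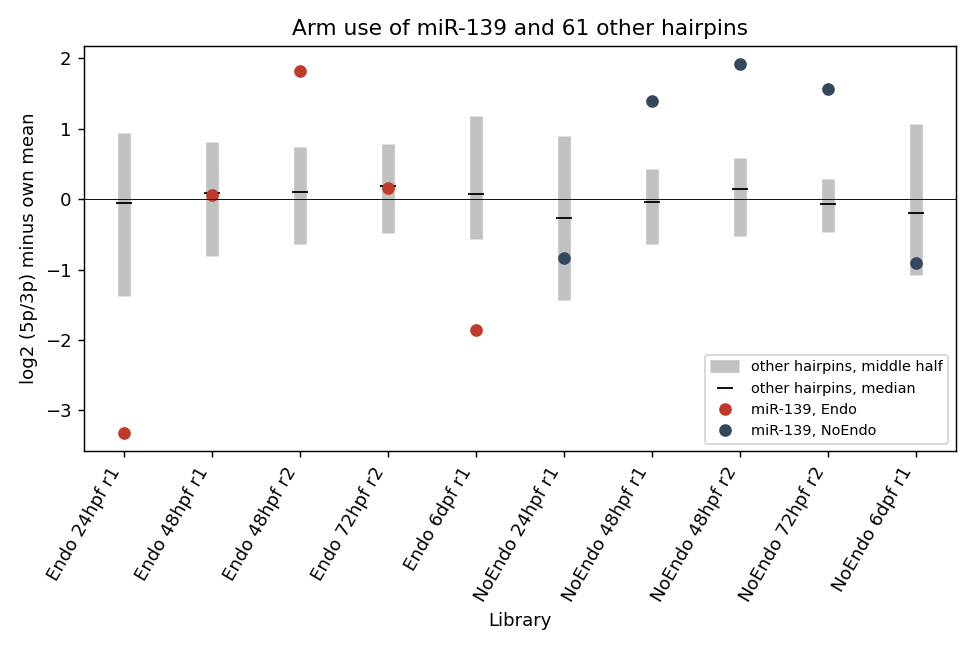
Arm use by library as log2 of 5p over 3p counts minus each hairpin's own mean over the 10 libraries (vertical axis), Endo left of NoEndo. Points are miR-139, grey bars the interquartile range and black ticks the median of 61 other hairpins. miR-139 runs from -3.32 in Endo at 24 hpf to 1.92 in NoEndo replicate 2 at 48 hpf, and lies outside the grey bar in 6 of the 10 libraries. Each bar leaves out about as many of the other hairpins as it holds.

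The arms also differed in how many distinct read sequences they gave, taking the column of unique reads as that number, which the headers do not define. miR-139-5p had 7 to 43 distinct reads in the Endo libraries, 1.40 to 7.37% of its read count, and 10 to 34 in the NoEndo libraries, 2.17 to 13.2%. miR-139-3p had 31 to 64 in the Endo libraries, 13.9 to 27.4% of its read count, and 12 to 33 in the NoEndo libraries, 25 to 100%. In NoEndo replicate 1 at 48 hpf, all 14 reads of miR-139-3p were distinct.

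The percentage of distinct reads falls as reads are added, so each arm was set beside single-copy microRNAs whose read counts in the same library were within 2-fold of its own. In all 10 libraries, miR-139-5p lay below the median of these microRNAs and miR-139-3p above it. In Endo at 24 hpf, miR-139-5p had 6.93% against a median of 16.4%, lower than all 33 compared with it, and miR-139-3p had 24.1% against a median of 13.1%, above 22 of 24. In Endo at 6 dpf, miR-139-3p had 27.4% against a median of 12.3%, above all 26. In NoEndo at 24 hpf, miR-139-5p had 13.2% against a median of 21.2%, with 9 of 45 below it. In NoEndo at 6 dpf, miR-139-3p had 25% against a median of 21.1%, above 31 of 45. The adjustment for multiple mapping took at most 0.658% off the read count of miR-139-5p in any library. For miR-139-3p it took off at most 8.33%, reached in the library with 14 reads.

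The ratio of Endo to NoEndo levels differed by arm and stage. miR-139-5p was 2.63-fold higher in Endo at 24 hpf, 8.43-fold at 48 hpf, 8.19-fold at 72 hpf and 5.67-fold at 6 dpf in CPM. For miR-139-3p the ratios were 15.0, 15.2, 21.9 and 11.0 at the same stages. After TMM scaling the ratios were 2.71, 14.0, 11.2 and 6.88 for miR-139-5p, and 15.4, 26.2, 29.9 and 13.4 for miR-139-3p. On both scales the ratio of miR-139-3p exceeded that of miR-139-5p at every stage, and the ratio of miR-139-5p was smallest at 24 hpf. Scaling moves both arms of a library alike, so the second scale adds no check on the order of the arms. At 48 hpf that order rests on replicate means. There the 3p share was 4.65% in Endo replicate 2, below the 5.96% of NoEndo replicate 1, with overlapping counting intervals. Between libraries of the same number, Endo had the higher share in both replicates. With 1 library of each population at 3 of the 4 stages, these ratios have no replicate check there.

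In the edgeR fit across 265 microRNAs with stage as a factor, the log2 difference, Endo minus NoEndo, was 4.41 (SE 0.43) for miR-139-3p and 3.11 (SE 0.40) for miR-139-5p. These were the fifth and the tenth highest of the 265, whose median was -0.07. In that fit 14.3% of microRNAs passed as higher in Endo, and since this contrast chose both arms, nothing is read from their place. Scaled by total counts alone, the differences of all microRNAs shifted by -0.46 in the median. In RPM of the larger library total, which the headers do not define, miR-139-5p ran from 34.9 to 437 in Endo and from 20.7 to 115 in NoEndo, and miR-139-3p from 14.9 to 97.3 in Endo and from 4.95 to 20.9 in NoEndo, so both arms overlapped between the populations.

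**Figure D4:**
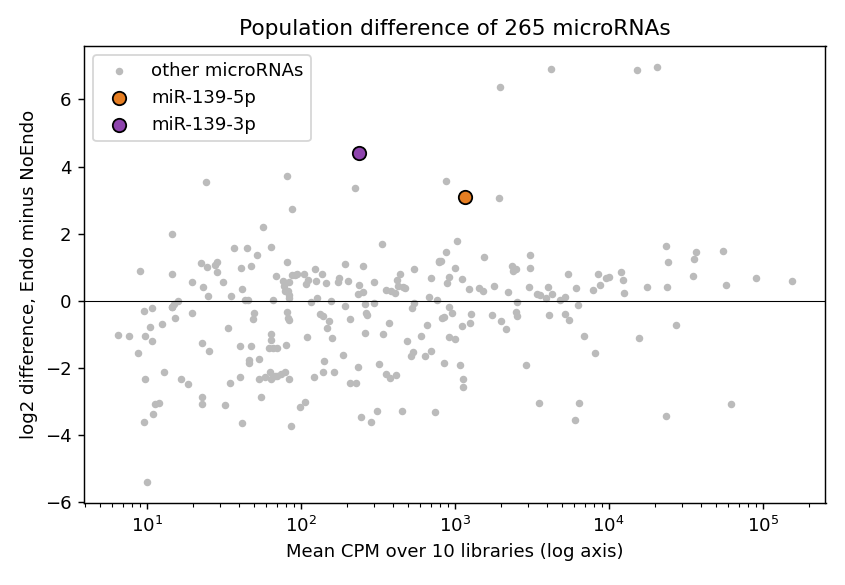
Difference between populations (vertical axis, log2, Endo minus NoEndo, from the fit with stage as a factor) against the mean CPM over 10 libraries (horizontal log axis), 1 point per tested microRNA. miR-139-3p at 4.41 and miR-139-5p at 3.11 lie in the upper part of the plot.

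The leukocyte list was higher in Endo in sum, mostly through miR-150, while the tested erythroid microRNA was not. The 6 tested leukocyte microRNAs, miR-150, miR-223, miR-142a-3p, miR-155, miR-146a and miR-146b, summed to 9724 to 62308 CPM in Endo and 721 to 1404 CPM in NoEndo. Over the 10 libraries, miR-150 averaged 20710 CPM, miR-223 1936 CPM and the others 47.8 to 106 CPM. The log2 difference, Endo minus NoEndo, was 6.97 for miR-150, 3.06 for miR-223, 2.19 for miR-142a-3p and 0.78 to 1.04 for the others. That of miR-150 was thus closer to the 6.36 to 6.91 of the endothelial miR-126 entries than to the rest of its list. Which cells held miR-150 was not tested. miR-150 and miR-223 had at least 2513 and 137 counts in every Endo library, and none of the 6 was at 0 in any library. miR-451, the 1 tested erythroid microRNA, was at 112 to 245 CPM in Endo and 124 to 1571 CPM in NoEndo. The 12 tested epithelial microRNAs summed to 7089 to 34598 CPM in Endo and 72957 to 296278 CPM in NoEndo, and miR-200a-3p and miR-203a-5p each reached 0 in Endo. The 8 tested neural microRNAs summed to 4893 to 19132 CPM in Endo and 7117 to 77064 CPM in NoEndo, with miR-219-5p at 0 in an Endo library. Their part in the levels of miR-139 was not tested. In sorted bulk samples, fewer cells with miR-139 and less of it per cell cannot be told apart.

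Neither arm passed in the test of a trend with age, which was not used to choose them. The slope, in log2 per doubling of age, was 0.75 (SE 0.52) in Endo for miR-139-5p and 0.55 (SE 0.48) for miR-139-3p (edgeR adjusted p = 0.421 and 0.558). In NoEndo it was 0.53 (SE 0.39) for miR-139-5p and 0.68 (SE 0.47) for miR-139-3p (edgeR adjusted p = 0.365 and 0.342). Of 265 microRNAs, 5.66% passed in Endo and 15.1% in NoEndo.

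On the TMM scale of this test, miR-139-5p in NoEndo was higher at each later stage, and its slope stayed between 0.46 and 0.55 with each library left out in turn. With total counts alone that slope was 0.10 (SE 0.71), and with the identical file kept as NoEndo it was 1.10. The other 3 courses did not run in 1 direction, and each of their slopes changed sign when 1 library, the first or the last in age, was left out. Without the Endo library at 24 hpf the Endo slope of miR-139-5p was -0.16, and without the Endo library at 6 dpf that of miR-139-3p was -0.48. The NoEndo slope of miR-139-3p was -1.08 without the library at 6 dpf and 2.10 without that at 24 hpf, where it passed (edgeR adjusted p = 0.0483; the range over all libraries left out in turn was 0.0483 to 0.422). The number of microRNAs called with age also rested on these libraries. The 15 called in Endo became 5 without Endo at 24 hpf, 3 without Endo at 6 dpf, 31 without NoEndo at 24 hpf and 27 without NoEndo at 6 dpf, and the 40 called in NoEndo became 3 without NoEndo at 6 dpf.

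The slopes of the populations did not differ detectably. The Endo minus NoEndo slope was 0.22 (SE 0.67) for miR-139-5p and -0.13 (SE 0.67) for miR-139-3p (edgeR adjusted p = 0.999 for both), and 0 of 265 microRNAs, 0%, passed. At an unadjusted p under 0.05 there were 12, and DESeq2 called 1. The SE leaves room for slopes that differ by more than 1 per doubling in either direction.

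**Figure D5:**
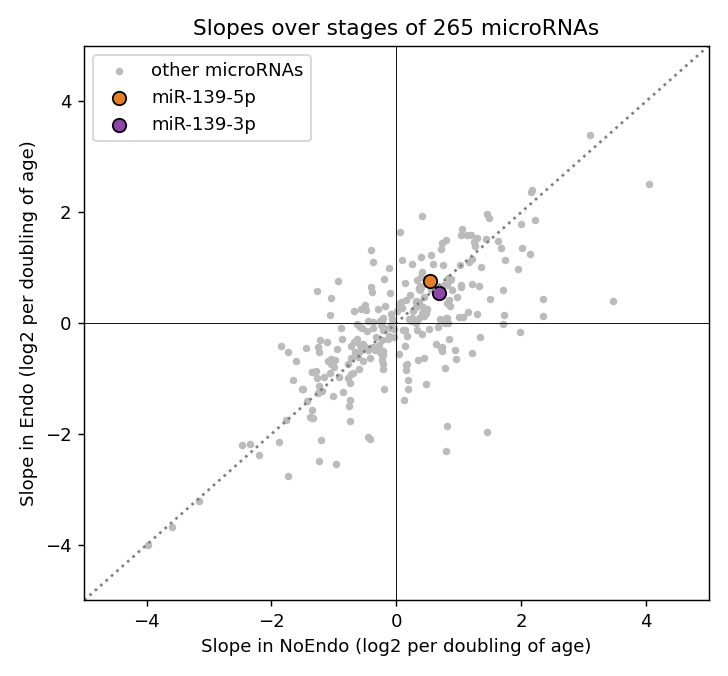
Slope over stages in Endo (vertical axis) against NoEndo (horizontal axis), both in log2 per doubling of age, 1 point per tested microRNA, with the dotted line where both are equal. Both arms of miR-139 lie near that line, with slopes from 0.53 to 0.75.

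Stage was then tested as a factor shared by both populations, a test added after the levels had been seen. The test counts Endo and NoEndo libraries of a stage as separate replicates, though the labels do not say whether they share a source. Outside 48 hpf, leaving out a library keeps that of the other population at the same stage, and stage goes with replicate number. miR-139-3p passed (F = 12.7, edgeR adjusted p = 0.00167) and miR-139-5p did not (F = 3.89, edgeR adjusted p = 0.0652), while 46.8% of the 265 microRNAs passed. The call of miR-139-3p held with each library left out in turn (adjusted p = 0.000309 to 0.0332). Scaling decided which arm passed. With total counts alone, miR-139-5p passed (F = 8.01, edgeR adjusted p = 0.0134) and miR-139-3p did not (F = 4.00, edgeR adjusted p = 0.0650). miR-139-5p also passed with DESeq2 size factors (edgeR adjusted p = 0.0455), without NoEndo at 24 hpf (F = 8.18, adjusted p = 0.0117) and without NoEndo replicate 2 at 48 hpf (adjusted p = 0.0494), and its F was 1.29 without Endo at 24 hpf (adjusted p = 0.393).

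Of the microRNAs in the marker and vascular lists, 1 of 44 passed in the test of a trend with age in Endo, where 5.66% of all 265 did, and 0 in NoEndo, where 15.1% did. This was the epithelial miR-200a-3p, which fell by 2.09 per doubling of age in Endo (SE 0.53, edgeR adjusted p = 0.0497). The 14 tested members of miR-221, miR-222, miR-23, miR-24, miR-27 and miR-210, microRNAs linked to vessel growth or hypoxia, had a median slope of 0.28 in Endo and -0.11 in NoEndo, against -0.03 and 0.08 over all 265.

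The microRNAs most like each arm over the 10 libraries were ranked by the root mean square difference of log2 TMM-scaled CPM after centring each on its own mean. Nearest to miR-139-5p were miR-222b at 0.70, miR-23b at 0.87, the myeloid microRNA miR-223 at 0.91, miR-187 at 1.10 and miR-23a-3p at 1.12, against a median of 2.19 over 264. Nearest to miR-139-3p were miR-187 at 1.25, miR-338 at 1.31, miR-30c-3p at 1.47, miR-735-5p at 1.498 and miR-1306 at 1.54, against a median of 2.74. Each of these neighbours was higher in Endo, by 1.15 to 3.71 on the log2 scale. This ranking carries the difference between populations on which the arms were chosen. Counts of miR-222b fell to 7 in an Endo library and 3 in a NoEndo library. At a distance of 1.62, miR-139-3p ranked 52 of 264 in likeness to miR-139-5p, and miR-139-5p ranked 8 of 264 in likeness to miR-139-3p.

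Centred within each population, which removes the difference between populations and leaves the course over stages, the nearest to miR-139-5p were miR-16b at 0.30, miR-16a at 0.30, miR-26a-5p at 0.44, miR-23b at 0.46 and let-7j at 0.47, against a median of 1.24. Nearest to miR-139-3p were miR-92a-3p at 0.44, miR-92b-3p at 0.48, miR-365 at 0.51, miR-735-5p at 0.57 and miR-1306 at 0.57, against a median of 1.50. The arms stood 1.51 apart, rank 172 of 264 for miR-139-5p and 133 for miR-139-3p. Over stages, the arms of this hairpin were thus no closer to each other than a typical microRNA was to either. All distances share the same 10 libraries. A library's TMM factor moves both microRNAs of a pair alike, so it largely drops out of these distances.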

How the data were processed

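Per the labels' protocols, embryos were dissociated with Liberase, the GFP-positive cells were taken by FACS, and Trizol RNA went into Illumina TruSeq libraries. STAR 2.3.0 and the build Zv9 stand in the submitters' processing notes. The trimming, the counting program and its filters are not stated. The deposited tables list every genomic copy of each mature microRNA, with unique reads and read counts as whole numbers, and expected counts that, per the file headers, are adjusted for multiple mapping. The deposited signal columns (RPM) served only to recover 2 library totals.

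Expected counts were summed by name and rounded. Both identical files of replicate 1 at 72 hpf were left out. The 265 microRNAs that reached 10 CPM in 3 or more libraries were tested with edgeR 4.0.16, after TMM scaling, by the quasi-likelihood F test in its robust form, and p-values were adjusted by Benjamini and Hochberg's method over all of them, with a threshold of 0.05. The SE is the log2 value divided by the square root of F. A model with a mean and a slope on log2 hours per population gave the trends, and a model with stage and population gave the differences between populations. Log levels for the likeness ranking used a prior count of 2. Alternatives used limma 3.58.1 and DESeq2 1.42.0. Named microRNAs are both arms, defining list members and the 5 nearest to each arm. The arms, lists and tests were chosen with earlier results of these data known, and miR-200a-3p and the hairpins whose major arm changed were named after their values were seen.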

Additional observations from a re-analysis of the deposited data

Results flagged for a closer look

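The Endo library at 24 hpf stood apart in miR-139-5p. Its 355 TMM-scaled CPM lay below the other 4 Endo libraries by a gap of 0.753 of the whole range, above the critical value of 0.71 for 5 libraries. It was 1 of 14 checks of this kind over both arms and populations, and chance marks about 1 in 20. The libraries of a population differ in stage, and on plain CPM the gap was 0.228 of the range.

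The identical 72 hpf file, which no comparison used, held miR-139-5p at 969 CPM and miR-139-3p at 385 CPM, both above every NoEndo library used and within the range of the Endo libraries. Its 3p share was 28.4% (exact binomial interval 25.1 to 31.9%), above the 13.4% of Endo replicate 2 and the 5.47% of NoEndo replicate 2 at the same stage. That share was also above the NoEndo shares at 24 hpf, 23.2%, and 6 dpf, 24.3%, and below the Endo shares at those stages, 63.3 and 38.4%. Were the file NoEndo, the order of stages in the 3p share would not hold there.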

How the results depend on the processing

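Limits: most groups hold 1 library, the 3p arm has few NoEndo counts, and TMM factors are far from 1. Total counts alone shifted the median slope of all microRNAs by -0.42 in Endo and -0.40 in NoEndo. The slopes of both arms in both populations kept their sign and did not pass under the 12 alternatives other than leaving out a library. Leaving out each library, the slope ran from -0.16 to 2.08 for miR-139-5p and from -0.48 to 1.48 for miR-139-3p in Endo, and from 0.46 to 0.55 for miR-139-5p and from -1.08 to 2.10 for miR-139-3p in NoEndo, with 3 to 31 microRNAs called in Endo and 3 to 47 in NoEndo. The slope difference ran from -0.68 to 1.55 for miR-139-5p and from -1.55 to 1.63 for miR-139-3p, with 0 calls. For miR-139-5p it was -0.34 and -0.41 with the identical file kept as NoEndo and under both titles, and -0.0033 per hour with a slope on hours.

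The 15 calls with age in Endo became 27 with DESeq2 size factors, 25 with a filter of 100 CPM, 53 with DESeq2, 29 with the identical file kept as Endo and 23 with the replicate number as a block. The 40 in NoEndo became 20 with total counts, 74 with DESeq2 and 26 with a slope on hours. DESeq2 called 1 slope difference. Replicate numbers share no stated source; at 48 hpf, deviations of same-numbered libraries correlated at 0.648 across 265 microRNAs. With the replicate block, no call of either arm changed in the tests of trends, of the slope difference or of the stage factor, for which the block was added after seeing the data and F was 3.75 for miR-139-5p and 10.4 for miR-139-3p. Its Endo slopes were 0.76 and 0.64 for the 5p and 3p arm. Among the libraries used, only 48 hpf holds both replicate numbers. In the test of the stage factor the block therefore cannot separate stage from replicate number at the other stages.

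With the identical file kept as NoEndo and under both titles, microRNAs called between the populations fell to 27 and 40 from 111. The log2 difference between populations for miR-139-5p was then 2.62 and 2.36, and 2.64 with total counts alone. For miR-139-3p the difference was 3.60 and 3.15, and 3.93 with total counts alone. Leaving out each library it ran from 4.08 to 4.60, for miR-139-5p from 2.92 to 3.46, and calls from 65 to 120, with 70 without Endo replicate 2 and 65 without NoEndo replicate 2 at 72 hpf. The mean 3p share ran from 17.7 to 32.3% in Endo and from 9.75 to 14.8% in NoEndo, and counted over distinct reads it was 63.8% in Endo and 52.4% in NoEndo. For the stage factor, F ran from 1.29 to 8.18 (miR-139-5p) and from 6.39 to 16.4 (miR-139-3p) with 88 to 131 calls; with total counts it was 8.01 for miR-139-5p and 4.00 for miR-139-3p, and with DESeq2 size factors 4.53 for miR-139-5p. The cause was not tested.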
